A study of Mus musculus with 6 samples.

Results

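The genes of DEAD-box RNA helicases were examined in LSK cells, the lineage-negative, Kit+ and Sca1+ cells of mouse bone marrow that contain the blood stem cells and the earliest progenitors. They were the genes whose single annotated symbol began with Ddx and a number, with 1 gene of that name left out by the rule that defined the family. Of 18193 genes measured, 34 were members. A gene was read from 1 probe set, the one with the highest mean over the 6 arrays, and 24 of the 34 members had several, so that 80 probe sets belonged to the family. Ddx3y, Ddx19a and Ddx53 were not analysed here.

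The study asked how expression differs between LSK subpopulations that differ in function. LSK cells of adult mice aged 10 to 14 weeks were sorted by flow cytometry according to their CD34 and Flt3 antigens. The CD34-Flt3-, the CD34+Flt3- and the CD34+Flt3hi fraction were each measured on 2 Affymetrix arrays. No strain, genetic change or treatment is given in the labels, and nothing says whether the arrays of a group are different animals. The p-values therefore reflect the spread of these arrays alone, pooled over the groups and in part over genes, and that spread may be technical. Sample titles hold codes of unstated meaning, here A, B and C. Replicate 2 of each group had code A, replicate 1 of CD34+Flt3- and CD34+Flt3hi cells had code B, and replicate 1 of CD34-Flt3- cells had code C.

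DEAD-box proteins bind RNA through a core of 2 RecA-like domains, named for the Asp-Glu-Ala-Asp residues of its ATP-binding motif, and use ATP to separate short RNA duplexes or to clamp onto RNA and remodel RNA-protein complexes. Most members serve steps that every cell needs, such as ribosome assembly in the nucleolus, splicing, export, translation and decay of mRNA. A few are tied to the germline. Ddx4, the mouse Vasa gene, is a classical germ cell marker whose protein lies in germ granules and takes part in the piRNA pathway.

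All values are log2 intensities, and differences are log2 differences between group means with the standard error of the limma fit. That fit used all 6 arrays and all 18193 genes, and a gene was called when its adjusted p was under 0.05 after Benjamini-Hochberg correction over all genes. With 2 arrays a group the smallest p of an exact permutation test is 0.333, so no such test is given. Background was a log2 of 4.50, the 90th percentile of 27 unspiked bacterial control probe sets. Probe sets differ in brightness, so levels were compared between arrays and never between genes.

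The arrays had median linear intensities of 29.7 to 31.4. Cd34 was higher in both CD34+ groups than in CD34-Flt3- cells (1.48 and 2.23, limma adjusted p = 0.0194 and 0.000869) and Flt3 was higher in CD34+Flt3hi cells than in the CD34+Flt3- group (2.56, adjusted p = 0.0444), while the Kit differences did not pass (adjusted p of 0.309 and above). Ly6a, which encodes Sca1, was not analysed here. The bacterial spike bioC read higher on the CD34-Flt3- arrays (5550 and 7594, linear) than on the others (2594 to 3884), and the 3 prime actin probe set read lower, at 7693 and 7368, where the others gave 12426 to 12963. For Gapdh the 3 prime to 5 prime ratio was 5.04 and 6.34 on those arrays, below the 6.59 to 8.42 of the rest, while that of actin was 3.58 and 5.55 against 3.25 to 4.44. The part of these readings in the comparisons with CD34-Flt3- cells was not tested.

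The promoters below stand for the members whose arrays differed or that belong to the germline set, and are shown because they differ in CpG content. They are the 250 bases before the annotated start in RefSeq (GRCm38.p6), printed 5′ to 3′ on the gene's strand with each CG in capitals. The Ddx4 window is chr13:112652311-112652560 on the minus strand, the Ddx25 window chr9:35558471-35558720 on the minus strand and the Ddx60 window chr8:61927837-61928086 on the plus strand.
Ddx4: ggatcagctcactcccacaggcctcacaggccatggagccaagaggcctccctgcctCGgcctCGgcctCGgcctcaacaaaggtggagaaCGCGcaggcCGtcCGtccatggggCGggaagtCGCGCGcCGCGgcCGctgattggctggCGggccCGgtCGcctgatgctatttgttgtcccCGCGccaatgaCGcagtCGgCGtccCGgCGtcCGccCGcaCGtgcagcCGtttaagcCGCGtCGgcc
Ddx25: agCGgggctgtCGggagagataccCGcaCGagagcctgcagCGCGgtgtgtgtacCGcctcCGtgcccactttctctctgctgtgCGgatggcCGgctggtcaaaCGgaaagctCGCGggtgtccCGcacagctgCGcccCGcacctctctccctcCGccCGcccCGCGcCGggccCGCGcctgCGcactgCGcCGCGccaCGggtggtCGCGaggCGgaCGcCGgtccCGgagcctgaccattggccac
Ddx60: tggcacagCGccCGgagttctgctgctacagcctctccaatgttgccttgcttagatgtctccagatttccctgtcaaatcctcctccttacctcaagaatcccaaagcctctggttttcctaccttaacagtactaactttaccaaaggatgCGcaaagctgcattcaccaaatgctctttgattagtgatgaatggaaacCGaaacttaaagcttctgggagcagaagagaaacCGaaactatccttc

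The Ddx4 window held 31 CpG, a count that 5.19% of the 32851 RefSeq windows of this length reached. The Ddx25 window, of a testis gene, held 34 and the Ddx60 window, of an interferon-induced gene, held 5. Promoter windows were found for 30 of the 34 members, with a median of 19.5 CpG (5 to 34) against 6 over all windows, and 3 members, Ddx4 included, had at least 31. Their median GC content was 60.6% against 52.4% over all windows. By this count the Ddx4 window lay within the range of the broadly expressed members. Short motifs were then searched on both strands. The letters CACGTG, the E-box of Myc type, stood in the Ddx4 window alone among the 30 members (6.02% of all windows). CCAAT stood in 17 member windows, those of Ddx4, Ddx25 and Ddx60 among them (33.8% of all windows), the ETS-type letters CCGGAAG in 8 (6.91%), and TATAAA in none (12.4%). These matches describe letters in a window and no binding was measured.

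Of the 34 members, 33 had a mean above background, and 31 to 33 members per array read at or above it. Ddx4 was among the 33 only through the CD34+Flt3hi arrays, and Ddx43 was below background on all 6. Over the 6 arrays Ddx4 ranged from below background to 8.70, whereas most members stayed within 1 log2 unit.

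**Figure D1:**
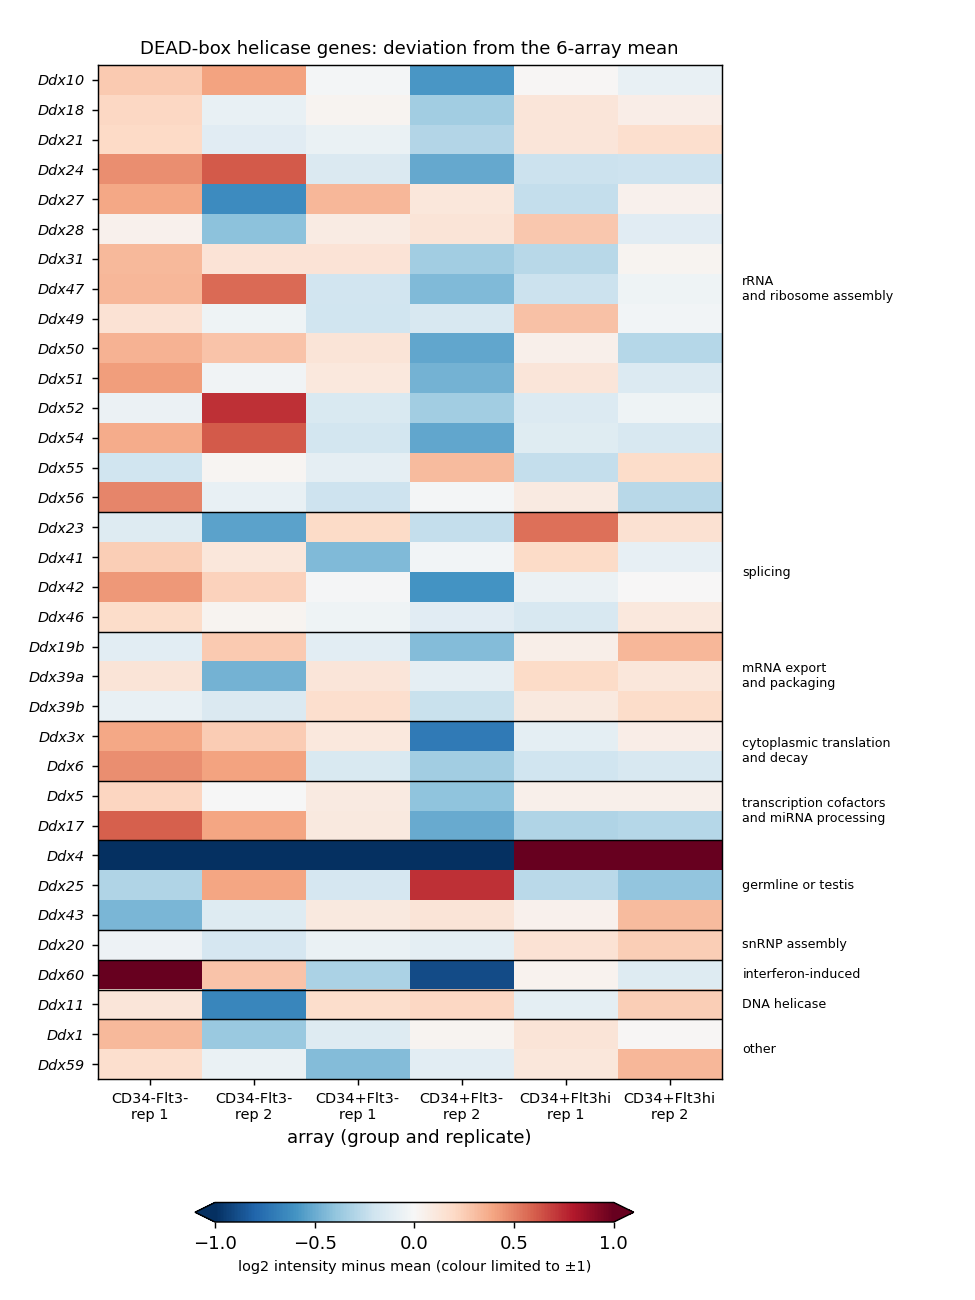
Heat map of the 34 members (rows, grouped by role) on the 6 arrays (columns), coloured by log2 intensity minus the member's own mean over the arrays, with colours limited to ±1. Ddx4 is far below its mean on 4 arrays and far above it on both CD34+Flt3hi arrays, while replicate 2 of the CD34+Flt3- group is the lowest array for 18 of the 33 members above background.

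Ddx4 (Entrez gene 13206) was the member that set CD34+Flt3hi cells apart. It read 3.49 and 3.95 in CD34-Flt3- cells, 3.63 and 3.71 in CD34+Flt3- cells, and 6.79 and 8.70 in CD34+Flt3hi cells. The first 4 arrays were all below background, both CD34+Flt3hi arrays were clearly above it, and those 2 arrays differed from each other by more than any other pair of replicates of this gene.

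Ddx4 was at least 9.47-fold higher in CD34+Flt3hi cells than in either other group, taking background as the level of the groups below it. The bound was at least 4.89-fold on the dimmer and at least 18.3-fold on the brighter CD34+Flt3hi array. The fitted difference was 4.07 ± 0.50 (SE, n = 2 per group) from CD34+Flt3- cells, with a limma adjusted p of 0.00662, and 4.02 ± 0.50 from CD34-Flt3- cells, with an adjusted p of 0.00167. Within title code A these differences were 4.98 and 4.74, and within code B the first was 3.16, each from 1 array a group. Between CD34+Flt3- and CD34-Flt3- cells, both below background, it was -0.05 (adjusted p = 0.971).

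The call against CD34+Flt3- cells was lost without either CD34+Flt3- array. Those fits leave 1 array in that group and called fewer of all genes as well. The difference stayed at 4.03 without replicate 1 of the CD34+Flt3- group and at 4.12 without its replicate 2. The call against CD34-Flt3- cells held without any single array (adjusted p of 0.000898 to 0.00824). The difference between its change from CD34+Flt3- to CD34+Flt3hi cells and that from CD34-Flt3- to CD34+Flt3- cells was 4.13 ± 0.87 and did not pass (adjusted p = 0.239). When single arrays were left out it ran from 3.17 to 5.08. Ddx4 had a single probe set here, so that no other probe set bears on its reading.

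The other germline members did not share this pattern. Ddx25, a gonadotropin-regulated helicase of the testis, read 4.72 and 5.41, then 4.85 and 5.75, then 4.75 and 4.62 in the order of the groups above. All arrays were above background and the groups overlapped except that both CD34+Flt3hi arrays were below both CD34+Flt3- arrays, and its difference between CD34+Flt3hi and CD34+Flt3- cells was -0.61 ± 0.35 (adjusted p = 0.854). Ddx43, a cancer-testis gene, read 3.39 and 3.72, then 3.94 and 3.97, then 3.89 and 4.17. Since all 6 values were below background they have no reliable order, and no fold is given.

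**Figure D2:**
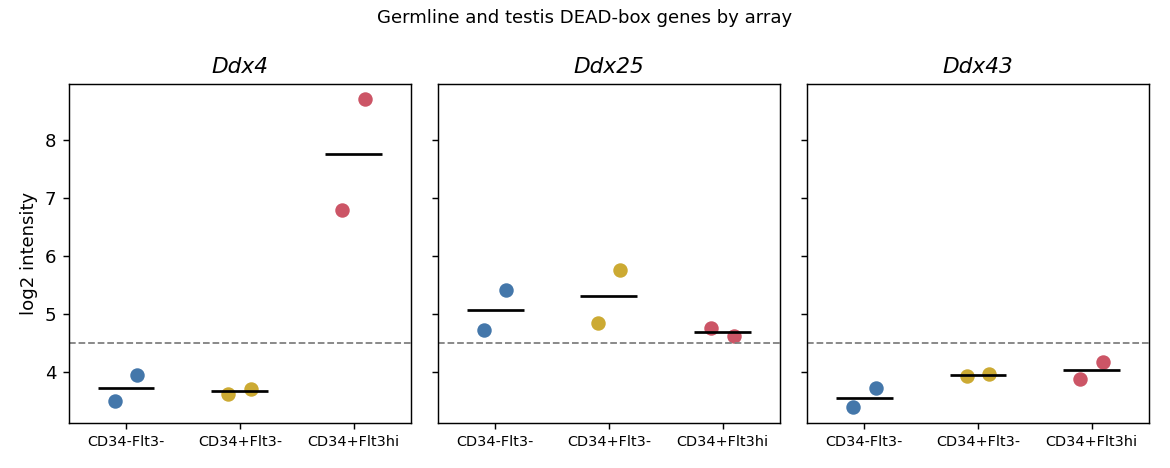
Log2 intensity of Ddx4, Ddx25 and Ddx43 on each array by sorted group, with a bar at the group mean and background as the dashed line. Only the 2 CD34+Flt3hi arrays of Ddx4, at 6.79 and 8.70, are far above the line; Ddx25 lies between 4.62 and 5.75 and Ddx43 below the line.

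Other genes of the germ cell programme were read beside Ddx4. Of 28 listed genes, 23 were measured, 8 had a mean above background and 8 were below it on all 6 arrays. None was called in any of the 3 comparisons, where 0.61% to 6.11% of all genes were. Mael and Tdrd1, which act in piRNA production, read 3.04 to 3.36 and 4.13 to 4.31, and Sycp3, of the meiotic chromosome axis, 3.15 to 3.63, all below background. Dazl, an RNA-binding germ cell protein, read 4.01 and 4.34 on the CD34+Flt3hi arrays against 3.93 to 4.52 on the others. Piwil2, a Piwi protein of the piRNA pathway, read 4.02 and 4.20 there, again below background. Tdrd7, one of the few above background, read 6.51 and 6.58 in CD34+Flt3hi cells and 7.80 and 7.20 in CD34-Flt3- cells (-0.96 ± 0.31, adjusted p = 0.117).

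The summed linear intensity of the 23 genes was 724 and 754 in CD34-Flt3- cells, 680 and 646 in CD34+Flt3- cells and 616 and 598 in CD34+Flt3hi cells. The sum, in which the few genes above background such as Tdrd7 weigh most, was lowest in the group in which Ddx4 was highest. As log2 deviations from each gene's own mean, the 23 genes averaged -0.0389 and 0.112, 0.00223 and 0.0131, and -0.0128 and -0.0752. By that measure the CD34+Flt3hi arrays overlapped those of CD34-Flt3- cells. CD34+Flt3hi cells had 9 of the genes higher and 14 lower than CD34-Flt3- cells (median -0.09, against -0.07 over all genes), and 7 higher and 16 lower than CD34+Flt3- cells (median -0.05, against 0.03).

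**Figure D3:**
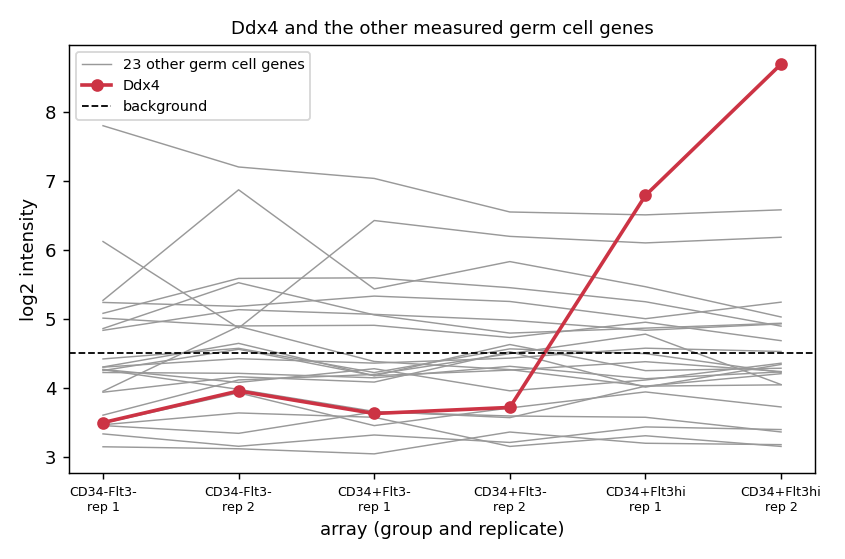
Log2 intensity on the 6 arrays of Ddx4 (red) and of the 23 other measured germ cell genes (grey lines), with background dashed; a line joins the arrays of a gene for reading only. Ddx4 leaves the low lines on both CD34+Flt3hi arrays, and none of the grey lines does so.

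Markers of other cells were read beside Ddx4 as well. Of the dendritic list all 7 genes were measured, 5 of them with a mean above background and none below it on every array. Its summed linear intensity was 524 and 848, then 743 and 1179, then 4488 and 3837, and without Flt3, on which the cells were sorted, 323 and 276, then 284 and 282, then 352 and 400. The rest of that sum was therefore highest in CD34+Flt3hi cells as well. Of its genes Itgax and Ccr9 read higher there than on every other array, and Siglech, Bst2, Zbtb46 and Cd209a did not. Itgax read 4.58 and 4.99, 4.45 and 4.45, and 5.47 and 5.81. Ccr9, a chemokine receptor of plasmacytoid dendritic cells and thymus-homing progenitors, was likewise highest on replicate 2 of the CD34+Flt3hi group, reading 3.70 and 3.49, 3.45 and 3.53, and 4.69 and 6.79. Over CD34-Flt3- cells it was at least 2.37-fold higher in CD34+Flt3hi cells (adjusted p = 0.0375), at least 1.14-fold on the dimmer and 4.91-fold on the brighter array, and its adjusted p against CD34+Flt3- cells was 0.132. Siglech, a defining gene of plasmacytoid dendritic cells, read 5.18 and 4.89 in CD34+Flt3hi cells against 4.92 to 5.86 elsewhere. The summed levels of the CD34+Flt3hi arrays were 130 and 123 for the 6 measured erythroid markers (97.4 to 134 elsewhere), 1599 and 1254 for the 10 of neutrophils and monocytes (1253 to 1304), 325 and 324 for the 7 of B cells (293 to 439), 262 and 253 for the 7 of T and NK cells (226 to 316), and 240 and 193 for the 8 of endothelium and stroma (223 to 434). Single markers moved within these sums. Csf1r, the receptor of macrophage colony-stimulating factor, read 5.79 and 6.36, 6.82 and 7.58, and 9.57 and 8.89, and was higher in CD34+Flt3hi cells than in both other groups (2.03 ± 0.36, adjusted p = 0.0447, and 3.16 ± 0.36, adjusted p = 0.00117). Lyz2, the lysozyme gene of myeloid cells, read 9.34 and 9.23 there against 9.84 to 10.00 elsewhere. Kdr, an endothelial receptor gene, fell in both CD34+ groups against CD34-Flt3- cells (-1.42 and -1.79, adjusted p = 0.0471 and 0.00732). Of these lists 1, 5, 5, 3 and 4 genes had a mean above background, and 1, 4, 1, 2 and 2 were below it on every array. The part of the dendritic genes and of Csf1r in the Ddx4 reading was not tested. In such bulk samples a few cells with much Ddx4 RNA and many with little cannot be told apart.

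The lymphoid gene Dntt, which encodes terminal deoxynucleotidyl transferase, was also highest in CD34+Flt3hi cells, with closer replicates, at 7.26 and 7.21, 6.44 and 7.11, and 12.59 and 12.61. Its difference between CD34+Flt3hi and CD34+Flt3- cells was 5.82 ± 0.27 (adjusted p = 2.28e-05).

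The neighbours of Ddx4 on chromosome 13, in the gene order of RefSeq, were Ankrd55, Il6st and Il31ra on one side and Slc38a9, Plpp1 and Mtrex on the other. In neither comparison with CD34+Flt3hi cells was any of the 6 called. Il31ra, a cytokine receptor gene and the nearest measured gene on its side, read 5.52 and 5.35, 5.16 and 5.07, and 6.09 and 6.28. The CD34+Flt3hi arrays were the highest without overlap, but the difference of 1.07 ± 0.26 from CD34+Flt3- cells did not pass (adjusted p = 0.155). Il6st, the gp130 signalling receptor, fell from CD34-Flt3- to CD34+Flt3- cells (-1.71 ± 0.31, adjusted p = 0.0283), and its difference between CD34+Flt3hi and CD34+Flt3- cells was 1.60 (adjusted p = 0.0696). Slc38a9, on the other side of Ddx4, differed by 0.28 ± 0.29 there (adjusted p = 0.963).

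The broadly expressed members tended to read lower in CD34+Flt3- than in CD34-Flt3- cells. None was called in the fit of all 6 arrays without a block for the title code. Of the 34 members 24 were lower and 10 higher, with a median of -0.29 (highest 0.46, lowest -1.25 for Ddx60, whose CD34+Flt3- mean was below background). Over all genes 61.0% were lower, with a median of -0.10, and the limma call was passed by 2.1%. Of the 33 members above background 24 were lower (median -0.32), against 63.5% of all genes above background (median -0.15). At an unadjusted p under 0.05, 9 members were lower and none higher, against 12.1% and 4.81% of all genes (16.9% in all). Of all genes above background 14.7% were lower in this way. No overlap between the arrays was seen for 16 members lower and 3 higher, where 28.6% and 15.6% of all genes did so. Repeating the quantile normalization left 19 of the members lower with a median of -0.08, so that the size of this shift depended on the scaling. A fixed block by title code called 6 members lower (Ddx3x, Ddx17, Ddx24, Ddx47, Ddx54 and Ddx60), and in that fit the CD34-Flt3- group rests on its replicate 2. Over all 18193 genes that block called 519 higher and 1060 lower.

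Single arrays weighed on this. Replicate 2 of the CD34+Flt3- group was the lowest of the 6 for 18 of the 33 members above background, as it was for 29.7% of all genes above background. On it the members deviated from their own mean by a median of -0.348, and all such genes by -0.138. Replicate 1 of the CD34-Flt3- group was the highest for 16 of the 33 (32.3% of all such genes). Without the first of these arrays 26 members were lower and the median was -0.17, and without the second 24 were lower and it was -0.15. Without replicate 2 of the CD34-Flt3- group 26 were lower with a median of -0.38.

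**Figure D4:**
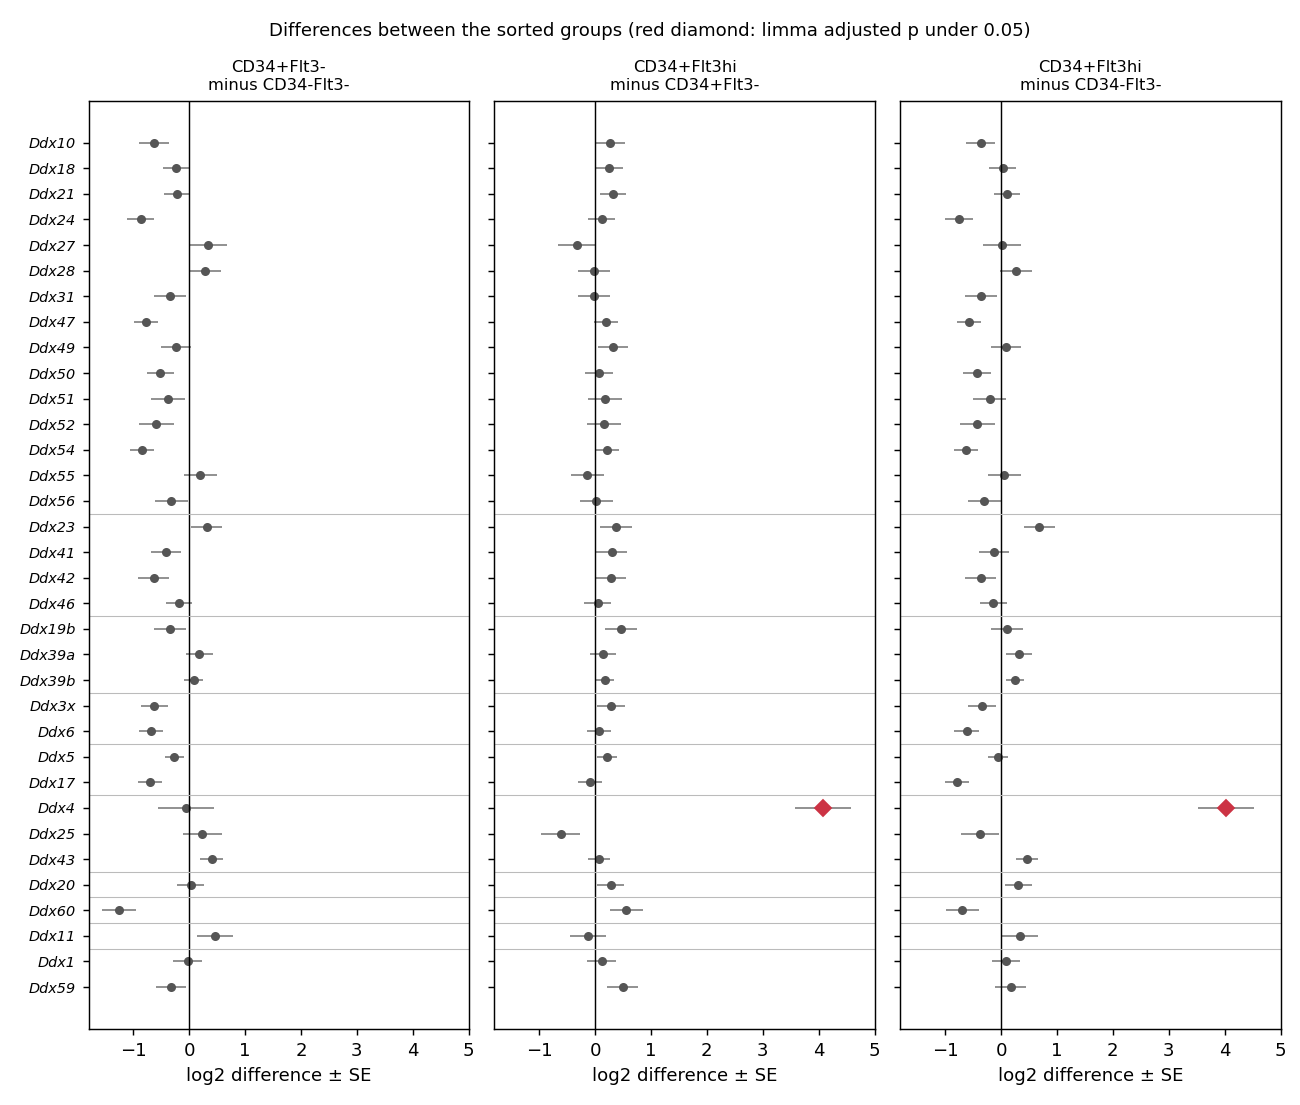
Log2 difference of each of the 34 members between sorted groups (points) with its limma standard error (bars), in 3 panels for the 3 comparisons; a red diamond marks an adjusted p under 0.05. Ddx4 is the only member so marked, at 4.07 and 4.02, and most other points in the left panel lie below 0.

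Ribosome assembly was the largest role, with 15 members. From CD34-Flt3- to CD34+Flt3- cells 12 of them were lower and 3 higher (median -0.34), and for 8 of the 12 the arrays did not overlap (28.6% of all genes were lower in this way). Ddx54, a nucleolar helicase, read 10.27 and 10.51, 9.71 and 9.38, and 9.78 and 9.74. Both CD34-Flt3- arrays were above the other 4, and the difference from CD34+Flt3- cells was -0.84 ± 0.22 (adjusted p = 0.0861). When single arrays were left out it ran from -1.01 to -0.67.

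Ddx24, which acts in the maturation of the large ribosomal subunit, read 9.11 and 9.26, 8.51 and 8.13, and 8.43 and 8.44. Again the CD34-Flt3- arrays were the highest, and the differences from them were -0.87 ± 0.24 (adjusted p = 0.108) for CD34+Flt3- cells and -0.75 ± 0.24 (adjusted p = 0.12) for CD34+Flt3hi cells. Ddx47, of early rRNA processing, read 10.24 and 10.47, 9.71 and 9.47, and 9.69 and 9.87. Its difference at the first step was -0.76 ± 0.21 (adjusted p = 0.106).

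Other nucleolar members moved less. Ddx10 read 8.89 and 9.03, 8.61 and 8.04, and 8.64 and 8.55. Its other probe set, above background, went the other way at the first step (0.54), reading 7.34 and 6.99, 7.47 and 7.95, and 7.57 and 7.48. The further probe sets of Ddx50 gave 0.11 and 0.23 there, and that of Ddx21 -0.22. Ddx50 and its relative Ddx21, which is known to support rRNA transcription, differed by -0.51 ± 0.25 and -0.22 ± 0.23 between CD34+Flt3- and CD34-Flt3- cells (adjusted p = 0.336 and 0.677). Ddx27, of the PeBoW complex, went the other way at 0.34 ± 0.34, and its CD34-Flt3- arrays were far apart, at 8.72 and 7.70. Ddx28, of mitochondrial ribosome assembly, and Ddx55 were the other 2 that read higher, by 0.29 and 0.20.

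Of 30 listed rRNA processing factors that carry no Ddx name, 25 were lower and 5 higher in CD34+Flt3- cells (median -0.18), none was called, and over all genes 61.0% were lower with a median of -0.10. Nop58, of the box C/D snoRNP, went the other way. It read 9.68 and 9.24, 10.12 and 10.19, and 10.34 and 10.31, and its CD34+Flt3hi mean was 0.86 ± 0.22 above that of CD34-Flt3- cells (adjusted p = 0.0461). Genes of the cell cycle had the opposite sign. All 18 measured genes of G2 and M phase and all 20 of S phase were higher in CD34+Flt3- than in CD34-Flt3- cells, with medians of 2.10 and 0.88, and 8 and 4 of them were called (0.77% of all genes were called higher). The CD34-Flt3- arrays stood far apart, with summed linear intensities of 6076 and 1948 for the G2 and M genes and 19670 and 14680 for the S phase genes. Without the first of them the medians were 3.06 and 1.24 with 18 and 15 calls, and without the other 1.24 and 0.48 with 13 and 5. Without any 1 of the other 4 arrays the medians stayed at 2.09 to 2.12 and 0.88 to 0.95. The calls on both lists were lost there, in fits that called far fewer of all genes too.

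Decay and translation have 2 members here, Ddx6 and Ddx3x. Ddx3x, an X-linked helicase that aids translation of mRNA with structured leaders, read 11.90 and 11.78, 11.63 and 10.81, and 11.42 and 11.58. Replicate 2 of CD34+Flt3- cells stood apart as the lowest, and the difference at the first step was -0.62 ± 0.24 (adjusted p = 0.233). Its further probe sets gave -0.47 and -0.24 at that step. Between CD34+Flt3hi and CD34-Flt3- cells they gave -0.01 and 0.05, where the brightest gave -0.34.

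Ddx6, which represses translation and promotes decapping in P-bodies, gave different answers from different probe sets. Its brightest probe set read 9.58 and 9.52, 8.97 and 8.77, and 8.92 and 8.96, highest in CD34-Flt3- cells. The next brightest read 7.85 and 7.57, 8.49 and 8.92, and 9.19 and 9.57, lowest in those cells. The order of the groups was thus reversed between 2 probe sets assigned to the same gene.

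In a limma fit of all 34945 single-gene probe sets, of which 4.13% were called between CD34+Flt3hi and CD34-Flt3- cells, the next brightest probe set was 1.67 ± 0.27 higher in CD34+Flt3hi cells (adjusted p = 0.00881). The brightest probe set was at -0.61 ± 0.22 in the same fit (adjusted p = 0.2). That call was lost without replicate 1 of the CD34+Flt3hi group (adjusted p = 0.0765) or its replicate 2 (0.181). The gap between them, the next brightest minus the brightest on the same array, was -1.74 and -1.95 in CD34-Flt3- cells, -0.48 and 0.15 in CD34+Flt3- cells and 0.27 and 0.61 in CD34+Flt3hi cells. No 2 groups overlapped in this gap, which was picked after its values were seen and has no test of its own. Another probe set read 6.68 and 9.15 on the CD34-Flt3- arrays, far apart, and the dimmest was below background throughout. What part of the Ddx6 transcript each probe set reads is not given in the sources used here.

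**Figure D5:**
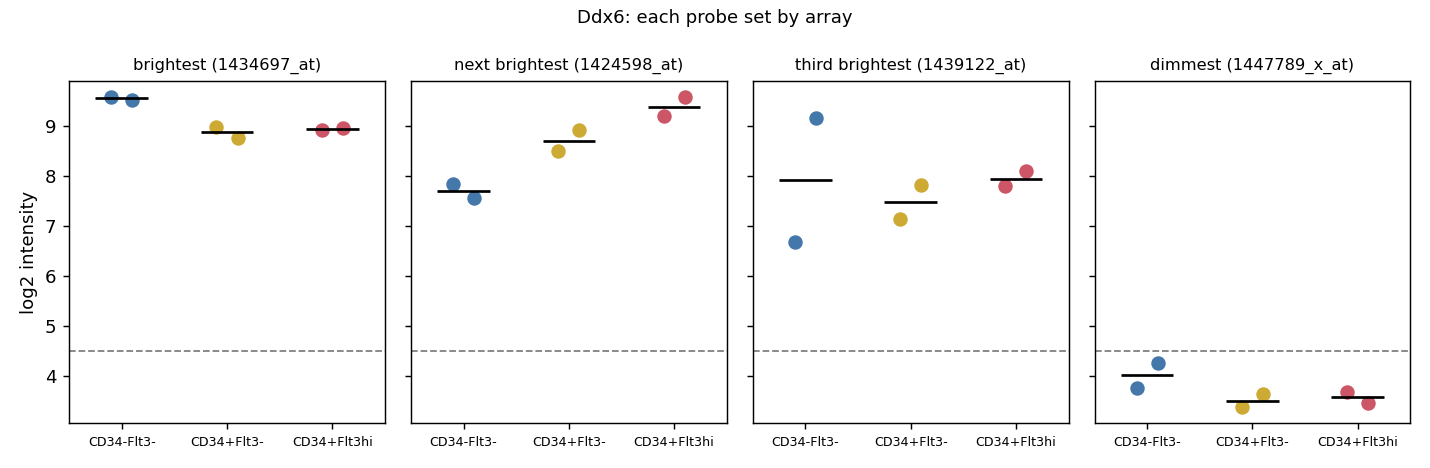
Log2 intensity of the 4 Ddx6 probe sets on each array by sorted group, with a bar at the group mean and background dashed; levels are compared within a panel only. The group mean of the next brightest goes from 7.71 to 9.38, while the brightest is highest in CD34-Flt3- cells at 9.55.

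Among the P-body and deadenylation partners of Ddx6, 13 of 16 were lower in CD34+Flt3- than in CD34-Flt3- cells (median -0.39) and none was called. Over all genes 61.0% were lower (median -0.10) and 2.1% were called. Edc3, a decapping enhancer, read 9.33 and 9.19, 8.55 and 8.36, and 8.61 and 8.96 (-0.81 ± 0.24 at the first step, adjusted p = 0.127).

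Disagreement between probe sets was common in the family. Of the 46 further probe sets of the 24 members that had several, 14 (of 11 members) had the opposite sign to the brightest one between CD34+Flt3- and CD34-Flt3- cells. There were 17 (of 15 members) between CD34+Flt3hi and CD34+Flt3- cells and 17 (of 14) between CD34+Flt3hi and CD34-Flt3- cells. For Ddx54 the further probe sets gave -0.85 and 0.25 at the first of these comparisons, and for Ddx47 0.07 and 0.32. Those at 0.25 and 0.32 were below background on all 6 arrays, and the Ddx47 one at 0.07 read 4.68 to 5.04, near it. Signs of such dim probe sets are not reliable, and the counts above include them.

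Ddx5 and Ddx17 encode the paralogs p68 and p72, cofactors of transcription and of the Drosha complex that cuts miRNA precursors. Ddx17 read 12.12 and 11.92, 11.62 and 11.02, and 11.22 and 11.24. The CD34-Flt3- arrays were above the other 4, and the difference of CD34+Flt3hi from CD34-Flt3- cells, -0.79 ± 0.21, was just short of the threshold (adjusted p = 0.0574). For Ddx17 this difference ran from -0.89 to -0.69 when single arrays were left out. Its further probe sets gave -0.71 and -0.46, the same sign. Ddx5 read 12.71 and 12.49, 12.58 and 12.09, and 12.55 and 12.54, with overlapping arrays and -0.05 ± 0.18 in the same comparison (adjusted p = 0.921). One further probe set of Ddx5 was nearer to Ddx17. It read 11.83 and 11.56, 11.17 and 10.57, and 10.98 and 11.18, with no overlap and -0.62 ± 0.22 in the fit of all probe sets (adjusted p = 0.195), and the 5 further probe sets ranged from -0.62 to 0.13. A contrast between the paralogs therefore depended on the probe set and was not tested. Of 8 microprocessor and miRNA genes 6 read lower in the CD34+Flt3hi than in the CD34-Flt3- group (median -0.21) and none was called. Over all genes 57.7% were lower (median -0.07) and 6.11% were called.

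Splicing had 4 members. Ddx23, the U5 snRNP helicase Prp28, read 4.89 and 4.48, 5.21 and 4.78, and 5.57 and 5.17. It was near background, and its CD34+Flt3hi arrays lay above the CD34-Flt3- arrays by 0.69 ± 0.28 (adjusted p = 0.227). Ddx42, an SF3b-associated helicase, read 8.57 and 8.37, 8.12 and 7.54, and 8.08 and 8.14 (-0.64 ± 0.28 at the first step, adjusted p = 0.276). Ddx46, the U2 snRNP helicase Prp5, stayed between 8.60 and 8.95 on its brightest probe set, while its 4 further probe sets ranged from -0.87 to 1.65 at the first step. The probe set at -0.87 was below background on 2 arrays. Ddx41, which is mutated in familial myeloid neoplasms, read 7.87 and 7.73, 7.17 and 7.59, and 7.81 and 7.54 (-0.42 ± 0.27, adjusted p = 0.475). Among 19 other genes of the U2 and U5 particles, 12 were lower and 7 higher at that step (median -0.11), with no call. This was close to all genes, of which 61.0% were lower (median -0.10) and 2.1% were called.

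Of the 3 export members 2 read higher and 1 lower at the first step. Ddx39b, the UAP56 subunit of the TREX complex, and its paralog Ddx39a differed by 0.08 ± 0.16 and 0.18 ± 0.23 between CD34+Flt3- and CD34-Flt3- cells. Against CD34-Flt3- cells, CD34+Flt3hi cells were at 0.25 ± 0.16 and 0.32 ± 0.23 (adjusted p = 0.488 and 0.537). Ddx19b, the helicase at the nuclear pore, read 6.59 and 6.96, 6.59 and 6.26, and 6.75 and 7.02. It was at -0.35 ± 0.29 at the first step (adjusted p = 0.58), where its further probe sets gave 0.23 and 0.29. Those probe sets were below background on 2 and 5 arrays.

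Ddx60, an interferon-induced helicase of antiviral defence, was above background in CD34-Flt3- cells and below it in CD34+Flt3- cells. It read 5.60 and 4.87 in CD34-Flt3- cells, 4.27 and 3.69 in CD34+Flt3- cells and 4.62 and 4.46 in CD34+Flt3hi cells. Both CD34+Flt3- arrays and 1 CD34+Flt3hi array were below background. CD34-Flt3- cells were at least 1.66-fold higher than CD34+Flt3- cells, at least 1.29-fold on the dimmer and 2.14-fold on the brighter CD34-Flt3- array. The other Ddx60 probe set, below background on 5 arrays, gave -0.005 at this step. For the brighter probe set the fitted difference of -1.25 ± 0.30 did not pass (adjusted p = 0.0693). Leaving out single arrays gave -1.62 to -0.89, the first without replicate 2 of the CD34-Flt3- group, which leaves that group at its higher array.

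Of 15 interferon-induced genes 12 were lower in CD34+Flt3- than in CD34-Flt3- cells (median -0.36). Over all genes 61.0% were lower (median -0.10) and 2.1% were called in either direction. Rsad2, the antiviral viperin gene, was the 1 of the list that was called, at -1.48 ± 0.31 (adjusted p = 0.0426). It read 9.17 and 9.41, 8.24 and 7.39, and 7.79 and 7.80. Dhx58, an RNA sensor of the DEAH list, read 8.07 and 7.72, 7.01 and 6.52, and 7.56 and 7.48 (-1.13 ± 0.28, adjusted p = 0.0801). The summed linear intensity of the 15 was 3606 and 2634, 2463 and 1720, and 2569 and 2388, so that the CD34-Flt3- arrays stood highest and the 2 of them far apart.

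None of the remaining members was called. Ddx20, the Gemin3 subunit of the SMN complex, read 8.25 and 8.35 in CD34+Flt3hi cells, slightly above the 7.94 to 8.05 of the other arrays (0.31 ± 0.24 against CD34-Flt3- cells, adjusted p = 0.575). Of 6 measured partners in that complex none was called. Ddx11, a DNA helicase of sister chromatid cohesion that carries the name without belonging to the RNA helicases proper, read 6.64 and 5.86, 6.70 and 6.73, and 6.42 and 6.77 (0.46 ± 0.32, adjusted p = 0.508). Ddx1, of the tRNA ligase complex, stayed between 9.49 and 10.18. Ddx59 read 7.11 and 6.88, 6.51 and 6.84, and 7.06 and 7.27 (0.49 ± 0.27 from CD34+Flt3- to CD34+Flt3hi cells, adjusted p = 0.852).

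From CD34+Flt3- to CD34+Flt3hi cells 27 members were higher and 7 lower, with a median of 0.17 against 0.03 over all genes, of which 46.0% were lower. Above background the median was 0.18 for members and 0.06 for all genes, of which 42.5% were lower. Ddx4 was the 1 called, where 0.61% of all genes were called in either direction and 0.385% as higher. It was also the 1 member at an unadjusted p under 0.05, where 6.76% of all genes were. The arrays did not overlap for 10 members higher and 2 lower (22.7% and 17.7% of all genes). Between CD34+Flt3hi and CD34-Flt3- cells 16 were higher and 18 lower (median -0.09 against -0.07 over all genes, 57.7% of them lower), and 9 had an unadjusted p under 0.05 (18.3% of all genes). Without replicate 2 of the CD34-Flt3- group 24 were lower with a median of -0.18, and without its replicate 1 the median was -0.03. Ddx4 was again the 1 called (6.11% of all genes, 2.62% as higher), and the arrays did not overlap for 5 higher and 11 lower (18.8% and 29.1%). These comparisons share arrays with each other and with the first. For the difference between the steps 27 of the 34 were above 0 (median 0.54 against 0.14 over all genes) and none was called, where 0.0275% of all genes were, while 5 had an unadjusted p under 0.05 (9.29% of all genes).

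The DEAD-box genes without a Ddx symbol are those of the translation factor eIF4A and its exon junction relative. Eif4a2 read 11.46 and 10.98, 10.31 and 9.27, and 9.97 and 10.19. Its CD34-Flt3- arrays were above the other 4, and the difference of CD34+Flt3- cells was -1.43 ± 0.32 (adjusted p = 0.055). Its paralog Eif4a1 read 10.95 and 11.38, 11.54 and 11.24, and 11.61 and 11.60 (0.22 ± 0.20, adjusted p = 0.613). Eif4a3 read 4.71 to 5.23 over the 6 arrays. Of 25 DEAH-box and related helicases 17 were lower and 8 higher in CD34+Flt3- than in CD34-Flt3- cells (median -0.28). Over all genes 61.0% were lower there (median -0.10). None of the 25 was called in any of the 3 comparisons, where 0.61% to 6.11% of all genes were.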

How the data were processed

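RNA of 6 sorted samples was amplified in 2 rounds of transcription and measured on arrays, per the labels. The deposited intensity values were made by the authors with RMA, per the submitters' processing notes, which give no version. They were taken as linear from their range (6.50 to 24174), and log2 was taken for every test. Which arrays were normalized together is not given in the sources used here. Of 45101 probe sets 64 were controls, 34945 carried 1 gene symbol, 932 several and 9160 none, and only single-symbol probe sets were used. Symbols were updated by Entrez identifier (99.4% matched). Arrays have no depth, and their number sets the precision.

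The fit used limma 3.58.1 (R 4.3.3; package data.table, version 1.17.8) with an intensity trend in the empirical Bayes step, 3 residual and 6.86 prior degrees of freedom, and two-sided tests. The script was tested on simulated data. A group mean below background was set to background, array by array, for an "at least" fold. Figures used matplotlib 3.10.9 and pandas 2.3.3 in Python 3.11.15.

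The members, gene lists and roles were chosen with earlier results of these data known. Genes named were the members called, the 3 largest differences of each sign in a comparison, the germline members, Ddx3x, the brightest and dimmest members, 3 neighbours on each side of Ddx4, up to 3 genes of a list by adjusted p, the Eif4a genes and the sort antigens; further members, Dntt, single germ cell genes and Siglech were named after their values were seen. Alternatives were the title code as a block, other priors and weights, repeated normalization, other filters and probe set rules, other thresholds and leaving out each array.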

Additional observations from a re-analysis of the deposited data

How the results depend on the processing

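Counts of called members depended on the setting. A fixed replicate block by title code, which fits the code C array exactly, called 6 members lower in CD34+Flt3- than in CD34-Flt3- cells (Ddx3x, Ddx17, Ddx24, Ddx47, Ddx54 and Ddx60) in place of none. The same block called 4 between CD34+Flt3hi and CD34-Flt3- cells (Ddx4, Ddx17, Ddx24 and Ddx54) in place of 1, and 2 (Ddx4 and Ddx60) in place of none for the difference of the steps. With the block those comparisons rest on replicate 2 of the CD34-Flt3- group. Over all 18193 genes the block called 519 higher and 1060 lower in the first, in place of 140 and 242. In the second it called 986 and 1374 in place of 476 and 636. For the difference of the steps it called 350 and 210 in place of 3 and 2. In the block the call of Ddx4 between CD34+Flt3hi and CD34+Flt3- cells held. The codes' meaning is not stated, so the pairing is open to doubt. With an adjusted p under 0.10, Ddx54 and Ddx60 made 2 calls between CD34+Flt3- and CD34-Flt3- cells (273 higher and 570 lower over all genes). Between CD34+Flt3hi and CD34-Flt3- cells, 2 members (Ddx4 and Ddx17) were called with the code as a random block, array weights, quantile normalization repeated, genes below background left out, an adjusted p under 0.10, or only the 4 arrays compared. Over all genes the settings of the last sentence called 355 to 639 higher and 537 to 988 lower. The cause of the changes in these counts was not tested.

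Leaving out each array in turn gave 0 to 1 calls between CD34+Flt3- and CD34-Flt3- cells, 0 to 1 between CD34+Flt3hi and CD34+Flt3- cells (0 without either CD34+Flt3- array), 1 to 2 between CD34+Flt3hi and CD34-Flt3- cells and 0 to 1 for the difference of the steps. Each such fit leaves 1 array in a group, and the calls over all genes changed as well. The Ddx4 difference then ran from 3.12 to 5.03 from CD34+Flt3- cells and from 3.07 to 4.97 from CD34-Flt3- cells. Over the other settings its adjusted p was at most 0.0188 and 0.00828. Members lower in CD34+Flt3- than in CD34-Flt3- cells, at any p, numbered 24 to 26 with an array left out (median -0.38 to -0.15) and 19 to 25 in the other settings, the alternatives for this count, the cell cycle genes and the Ddx6 probe sets being chosen after seeing the data. No difference of a member named in these settings changed sign, while the median of the members between CD34+Flt3hi and CD34-Flt3- cells became 0.02 with equal array medians. Repeating the quantile normalization moved the median of all genes from -0.10 to -0.00203 between CD34+Flt3- and CD34-Flt3- cells and changed the split of calls from 140 higher and 242 lower to 261 and 196.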
